A study of Mus musculus with 10 samples.

Results

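Spliceosomal, 7SK and other structured RNAs were followed in RNA sequencing of mouse mammary tumors and of macrophages sorted from them. They were selected on their measured level: the genes annotated snRNA, misc_RNA, scaRNA or ribozyme in the deposited tables were kept where they averaged at least 1 CPM over the libraries of a table. CPM are reads of a gene per 1e+06 reads of the library. The macrophage table held 55 such members of 23202 genes (27 snRNA, 14 misc_RNA, 13 scaRNA and 1 ribozyme gene), and the whole-tumor table held 46 of 19720 (27, 7, 11 and 1). Both tables shared 41 members, 14 were members in macrophages alone and 5 in tumors alone, which makes 60 of 24616 genes in all. The threshold fell in a continuum: in macrophages Gm24871 averaged 1.03 CPM just inside it and Gm26461 0.945 CPM just outside, and in tumors Scarna6 averaged 1.06 CPM and Gm23287 0.991 CPM. The levels that chose the members are given below as a description, without a test.

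The mice were on a B6 background and carried the MMTV-PyMT transgene, which drives a viral oncoprotein in mammary epithelium. All were Cxcr4fl/fl. The cKO mice also carried LysmCre, in which the lysozyme promoter drives Cre recombinase in myeloid cells, and the controls were littermates without Cre. Size-matched tumors were collected at 15 weeks of age. The macrophage table has 3 cKO libraries (mice 725, 746 and 867) and 3 control libraries (706, 720 and 775) of cells sorted on F4/80 and CD11b after enzymatic digestion. The tumor table has 2 cKO libraries (725 and 746) and 2 control libraries (706 and 720) made from snap-frozen tissue. Values of several libraries are given in these orders of mice.

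The members are RNAs that work as folded molecules without being translated. U1 and U2 pair with the 5′ splice site and the branch site of introns, U5 holds the exons in the active spliceosome, and U12 takes the place of U2 at the rare minor introns. The 7SK RNA keeps the elongation kinase P-TEFb inactive with the proteins HEXIM, LARP7 and MEPCE. 7SL is the RNA core of the signal recognition particle, scaRNAs guide base modification of the spliceosomal RNAs in Cajal bodies, Rpph1 is the RNA of RNase P, which trims tRNA precursors, and Y and vault RNAs belong to the Ro and vault particles.

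Most members are copies of a few RNAs. Matched to GENCODE vM21 transcripts (GRCm38) by gene identifier or symbol, 53 of the 60 members had a sequence, and 44 of these sequences were distinct. By symbol or by sequence likeness there were 13 copies of U2, 9 of U1, 5 of U5, 4 of 7SL, 15 scaRNAs, 2 Y RNAs and 1 member each of 7SK, U12, RNase P and vault RNA, and 8 members were assigned to no family. Of these 8, 6 had no sequence and could not be compared. The other 2, Gm24265 and Gm25541, were nearest to Rnu7 and Rnu6 at 30.5% and 48.8% identity, too unlike to assign. No member was assigned to U4 or U6, which does not show that these RNAs were absent. The first bases of 7SK are shown because HEXIM binds there, with the GATC letters of that hairpin in capitals. The 7SK gene Rn7sk (ENSMUSG00002076161) lies at chr9:78175303-78175633 on the minus strand, outside other genes.
Rn7sk: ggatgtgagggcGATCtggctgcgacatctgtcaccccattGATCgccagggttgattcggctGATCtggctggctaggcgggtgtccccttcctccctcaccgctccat
U2 and U1 are shown because the results turn on how their copies differ. Rnu2-10 (chr11:101658238-101658428, plus strand) has the branch-site pairing letters GTAGTA in capitals, and in the next 3 sequences capitals mark bases that differ from Rnu2-10. These are Gm23472 (chr1:72236946-72237136, plus strand), Gm25939 (chr1:72255008-72255198, plus strand), both within introns of the lincRNA gene D230017M19Rik, and Gm22973 (ENSMUSG00000065232, chr12:59040335-59040525, plus strand, outside other genes).
Rnu2-10: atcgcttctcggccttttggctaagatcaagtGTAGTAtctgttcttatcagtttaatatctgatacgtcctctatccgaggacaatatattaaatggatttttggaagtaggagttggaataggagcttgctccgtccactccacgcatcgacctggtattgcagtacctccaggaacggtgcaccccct
Gm23472: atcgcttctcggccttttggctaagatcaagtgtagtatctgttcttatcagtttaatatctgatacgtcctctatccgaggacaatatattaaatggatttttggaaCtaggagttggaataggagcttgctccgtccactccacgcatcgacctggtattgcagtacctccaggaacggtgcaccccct
Gm25939: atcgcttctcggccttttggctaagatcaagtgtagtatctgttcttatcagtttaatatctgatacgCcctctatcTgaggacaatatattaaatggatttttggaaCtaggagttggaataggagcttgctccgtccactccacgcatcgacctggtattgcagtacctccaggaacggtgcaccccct
Gm22973: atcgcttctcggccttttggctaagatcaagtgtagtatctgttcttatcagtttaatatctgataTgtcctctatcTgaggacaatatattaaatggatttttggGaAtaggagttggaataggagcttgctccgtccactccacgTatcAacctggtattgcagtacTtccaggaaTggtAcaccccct
Rnu1b1 (chr3:96359953-96360117, minus strand) and Gm22513 (chr12:54696782-54696945, plus strand) stand for the b and a forms of U1, and capitals mark the letters ACTTACCT that pair with the 5′ splice site.
Rnu1b1: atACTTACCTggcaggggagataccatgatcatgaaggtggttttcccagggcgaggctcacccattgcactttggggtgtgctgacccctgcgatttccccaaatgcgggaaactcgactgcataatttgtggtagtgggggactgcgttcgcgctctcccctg
Gm22513: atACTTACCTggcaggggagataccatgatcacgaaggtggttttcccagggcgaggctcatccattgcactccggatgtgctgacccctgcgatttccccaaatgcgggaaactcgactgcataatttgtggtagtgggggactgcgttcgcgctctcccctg

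Counted from 1 at the 5′ end, with the base of Rnu2-10 first, Gm23472 and its identical copy Gm23444 carry G109C, and Gm25939 carries T69C, C78T and G109C. Gm22973 carries 9 changes: C67T, C78T, A107G, G109A, C148T, G152A, C170T, C179T and G183A. Rnu2-10, Gm24950, Gm23849 and Gm23971 are identical and lie on chromosome 11. The letters GTAGTA were found on the RNA strand of all 13 U2 copies and of 1 of the 40 other members with a sequence, and ACTTACCT on all 9 U1 copies and 1 of 44 others. GATC is common, with a match in 43 of the 52 members other than 7SK.

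The libraries held 14.4 to 25.2 M reads in macrophages and 34.2 to 53.4 M reads in tumors (M, 1e+06), read from the steps between low values. Cxcr4, the targeted gene, was at 41.9, 165.2 and 24.1 CPM in cKO macrophage libraries, against 14.4, 135.4 and 54.3 CPM in control libraries, and at 47.9 and 57.6 CPM in cKO tumors, against 29.8 and 33.4 CPM in control tumors. Its level was thus not reduced in cKO libraries, so cKO below stands for what a library is labelled. The difference was 0.21 (SE 0.59, limma adjusted p = 0.9998) in macrophages and 0.72 (SE 0.29, limma adjusted p = 0.819) in tumors, on the log2(CPM + 1) scale. Epithelial transcripts were also read in the sorted cells: summed epithelial markers (7 genes) were at 4628 to 5877 CPM in cKO and 3313 to 7181 CPM in control macrophage libraries, above the summed macrophage markers (8 genes) at 1314 to 1597 CPM and 702 to 1559 CPM. In bulk RNA, fewer cells of a type and less RNA per cell cannot be told apart. The part of these markers in the results below was not tested.

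Together the members took a far larger share of tumor libraries than of macrophage libraries, and U2 and 7SK made up most of it. In macrophages the members held 8.72%, 6.80% and 6.54% of cKO libraries, against 8.59%, 5.02% and 13.0% of control libraries. In tumors they held 29.6% and 29.3% of cKO libraries, against 32.8% and 34.0% of control libraries. The control 775 macrophage library stood highest and control 720 lowest, so the macrophage groups overlapped, while both cKO tumors lay below both control tumors. Protein-coding genes filled 73.9%, 78.8% and 78.1% of cKO macrophage libraries, against 73.4%, 80.1% and 67.6% of control libraries, and 53.0% and 56.5% of cKO tumors, against 51.3% and 49.7% of control tumors. Of the member total, U2 and 7SK together gave 64.3% to 85.1% in macrophage libraries and 97.8% to 98.4% in tumors.

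**Figure D1:**
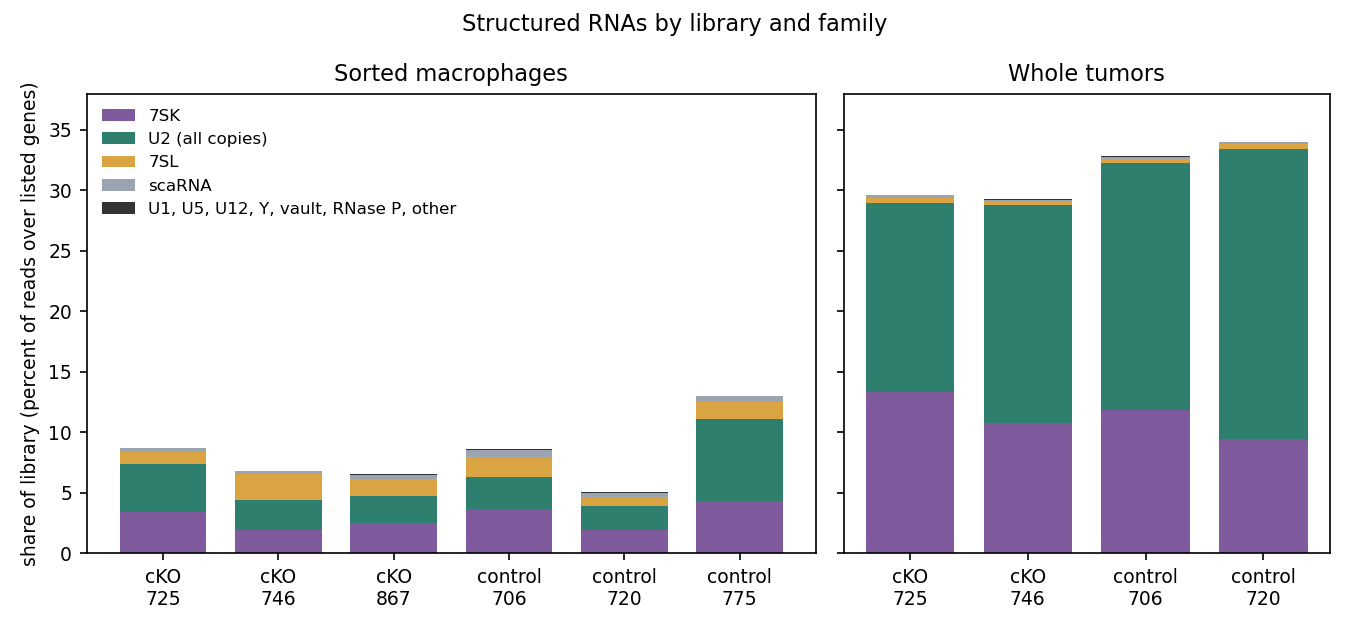
Stacked bars give the share of each library, in percent of reads over listed genes, taken by 7SK, by all U2 copies, by 7SL, by scaRNAs and by the other members. The members took 5.02% to 13.0% of the 6 macrophage libraries and 29.3% to 34.0% of the 4 tumor libraries, mostly as U2 and 7SK.

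Mean levels of members ran up to 29542 CPM in macrophages and 113552 CPM in tumors, in both for Rn7sk. In macrophages 29 averaged under 10 CPM, 15 from 10 to 1000 CPM and 11 above 1000 CPM, and in tumors 16, 18 and 12. Compared per length, U2 led: its summed level was 174956 CPM per kb in macrophages, against 89249.7 for 7SK, 46151 for 7SL, 19460.4 for scaRNAs and 1308 for U1. In tumors the order was 1020941 CPM per kb for U2, 343059 for 7SK, 11802 for 7SL, 8331 for scaRNAs and 954 for U1. Each sum was divided by the unweighted mean length of the family's members, which overstates the scaRNA level. The dominant scaRNA, Gm22009, was at 10917 CPM per kb in macrophages and 5039 in tumors on its own length of 343 bases. The shortest families (U1, U5, U12, Y and vault RNAs) together gave only 0.218% to 0.475% of the member total in macrophages and 0.0681% to 0.0966% in tumors. In macrophages 14 members had a library under 3 reads and 10 a library at 0, and in tumors 6 and 3. Listed genes of these biotypes below the threshold numbered 64 in macrophages and 37 in tumors and summed to 20.2 and 13.8 CPM. The minor spliceosome RNA Rnu11 was among them, at 0.582 and 0.562 CPM.

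No member passed the test between cKO and control in either table. The test was limma on log2(CPM + 1) with Benjamini-Hochberg adjustment over all genes averaging at least 1 CPM. In macrophages 0 of 55 members were called at an adjusted p under 0.05, as were 0 of 16304 genes (0%), and 428 genes but no member had an unadjusted p under 0.05 (2.63% of all genes, 1.09% lower and 1.53% higher in cKO). Without the trend 3 members had such a p and without control 720 5 members, all lower in cKO. In tumors 0 of 46 members were called, as were 0 of 14630 genes (0%), and 856 genes (5.85%) had an unadjusted p under 0.05. Among them were 8 members, all lower in cKO, or 8 of 46 beside 1.95% of all genes lower at that level, and no member was higher, beside 3.9%. That count rests on control 720, without which 1 member was lower at that level, and it was 14 under protein-coding, TMM or median-ratio scaling, all lower. Without the trend 6 members were lower and 2 higher. Those 8 comprise 4 copies of U2 and 4 of U1, which share most of their sequence. The 95% interval of the difference held 0 for all 55 members in macrophages and for 38 of 46 in tumors.

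More members had a negative than a positive difference in both tables. In macrophages 46 of 55 had a negative difference, beside 45.3% of all genes, and the median was -0.31 against 0.05 for all genes tested. In tumors 33 of 46 were negative, beside 43.4% of all genes, with a median of -0.32 against 0.09. In macrophages 5 members lay lower in every cKO than in every control library, beside 3.45% of all genes, and none higher, beside 3.78%. In tumors 21 of 46 lay lower, beside 14.3% of all genes, and 4 lay higher, beside 21.2%. Copies of one RNA make up much of these counts, 12 of the 21 being U2, 5 U1 and 3 U5. Of the members, 4 in macrophages and 3 in tumors averaged 1 CPM in controls but not in cKO, and 2 in each table in cKO but not in controls. Rescaling to protein-coding totals lowered the median difference of all tumor genes to -0.01 and that of members to -0.44, and 34 of 46 members were then negative, beside 51% of all genes. On that scale 23 members lay lower in both cKO tumors, beside 19%, and 2 members lay higher, beside 16.1%. In macrophages the same rescaling gave medians of -0.01 for all genes and -0.38 for members, and 46 of 55 were again negative, beside 51.4% of all genes. Then 5 members lay lower in every cKO library, beside 4.47%, and none higher, beside 3.05%.

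**Figure D2:**
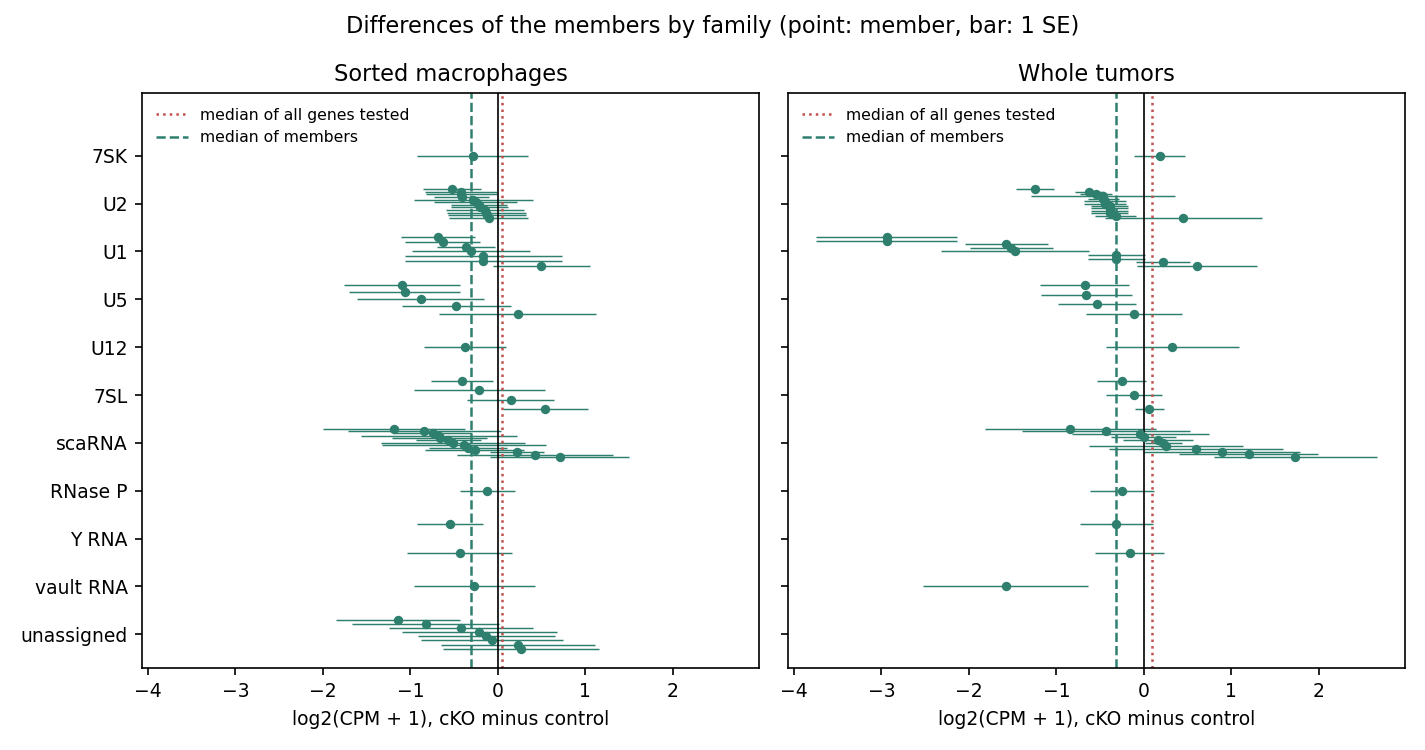
Each point is a member's difference in log2(CPM + 1), cKO minus control, with a bar of 1 standard error, by family, for macrophages (left) and tumors (right). The dashed line is the median of members (-0.31 and -0.32), the dotted line that of all genes tested (0.05 and 0.09), and the lowest points are the U1 genes Rnu1b1 and Rnu1b2 in tumors.

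U2, which selects the branch site, was lower in both cKO tumors than in both control tumors. Summed over its copies it was at 155989 and 179863 CPM in cKO tumors, against 204137 and 240010.4 CPM in control tumors. The groups did not overlap, the mean was 0.756 of that in controls, and that ratio was 0.695 when scaled to protein-coding reads. With 2 libraries per group such an order was frequent: 14.3% of all genes were lower in both cKO tumors, and 21.2% were higher. The sum averaged 167926 ± 16881 CPM in cKO and 222074 ± 25367 CPM in control (SD, n = 2 each). In macrophages the U2 sum was 39712, 24281 and 22782 CPM in cKO libraries, against 26148, 20339 and 67237 CPM in control libraries. Control 775 was the highest and control 720 the lowest of the 6 libraries, so the groups overlapped. The log2 ratio of means was -0.39 and turned to 0.32 without control 775, the library with the fewest macrophage marker reads (702 CPM, against 1314 to 1597 CPM in the others). Control 775 and cKO 867 also stood apart in summed fibroblast markers, at 1165 CPM in cKO 867 and 422 CPM in control 775, against 57.2 to 137 CPM in the other macrophage libraries. Summed endothelial markers (5 genes) were at 238 CPM in cKO 867 and 92.5 CPM in control 775, against 14.3 to 21.4 CPM in the others.

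Most U2 copies had the same order in tumors. Lower values in both cKO tumors were found for 12 of the 13 copies, beside 14.3% of all genes, the exception being the weakly read Gm25813. The copies share most of their sequence, and identical copies had nearly the same values in each tumor, so they are not separate observations. Gm25939, the highest copy in both tables, was at 33707 and 40701 CPM in cKO tumors, against 44985 and 47676 CPM in control tumors, a difference of -0.32 log2 units (SE 0.24, limma adjusted p = 0.872). Gm23472 was at 26469.5 and 34420.0 CPM in cKO tumors, against 38375 and 43983 CPM in control tumors, a difference of -0.44 log2 units (SE 0.24, limma adjusted p = 0.833), and Gm23444 was within 1% of it in each tumor. Gm24950 was at 16100.4 and 16058 CPM in cKO tumors, against 18641 and 23826 CPM in control tumors, a difference of -0.39 log2 units (SE 0.21, limma adjusted p = 0.833), and Rnu2-10 differed by the same -0.39. Each of these copies had both cKO tumors below both control tumors, and none passed the test.

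Gm22973 had the widest gap among the U2 copies in tumors. This copy, which carries the 9 changes shown above, was at 335 and 571 CPM in cKO tumors, against 911 and 1181 CPM in control tumors. This was -1.24 log2 units (SE 0.22, 95% interval -1.71 to -0.78). Its adjusted p of 0.492 (limma) was the lowest of all 14630 genes in tumors without passing the threshold. Over the alternatives its adjusted p ran from 0.0544 with an offset of 5 CPM to 0.933 without cKO 746. Within the U2 total it held 0.215% and 0.318% in cKO tumors, against 0.446% and 0.492% in control tumors, so its gap was wider than that of the U2 total. In macrophages Gm22973 was at 97.7, 79.6 and 57.6 CPM in cKO libraries, against 87.1, 75.2 and 204 CPM in control libraries, a difference of -0.52 log2 units (SE 0.33, limma adjusted p = 0.9998). There it held 0.246%, 0.328% and 0.253% of U2 in cKO libraries, against 0.333%, 0.370% and 0.303% in control libraries, and the groups overlapped.

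Other U2 variants lay closer to the family, but a lower share of U2 in both cKO tumors was not particular to Gm22973. Gm26316, with C170T only, was at 707 and 889 CPM in cKO tumors, against 1211 and 1229 CPM in control tumors, a difference of -0.62 log2 units (SE 0.17, limma adjusted p = 0.717). Of the U2 total Gm26316 held 0.453% and 0.494% in cKO tumors, against 0.593% and 0.512% in control tumors. Gm25360 held 2.16% and 2.23%, against 2.45% and 2.42%, and Gm24497 0.335% and 0.342%, against 0.350% and 0.357%. In macrophages these shares overlapped between groups. Gm22973, Gm26316, Gm25360 and Gm24497 are the 4 U2 copies with an unadjusted limma p under 0.05 in tumors. Their lower shares thus follow in part from the choice. Shares of the other single copies were not computed. The copies with G109C (Gm25939, Gm23472, Gm23444, Gm25360 and Gm24497) gave 58.0% and 63.5% of U2 in cKO tumors, against 62.4% and 59.3% in control tumors. In macrophages they gave 66.0, 66.5 and 59.8% in cKO libraries, against 70.4, 59.7 and 56.6% in control libraries. The groups overlapped in both tables.

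**Figure D3:**
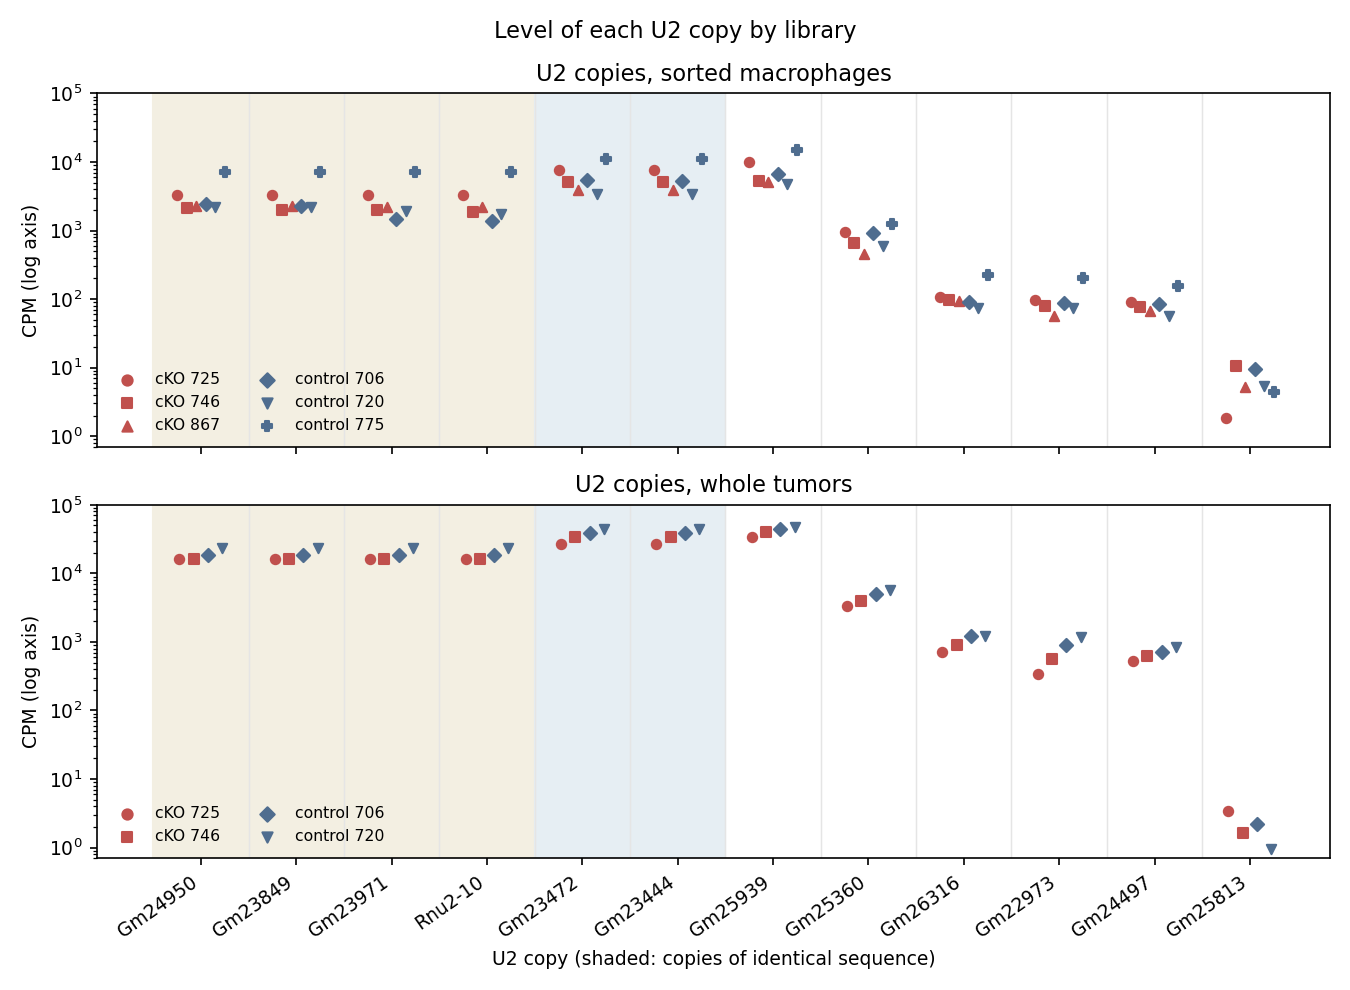
Points give CPM on a log axis for 12 U2 copies in each macrophage library (top) and tumor library (bottom), with shading over copies of identical sequence. In tumors both cKO points lie below both control points for each copy shown but Gm25813, and in macrophages control 775 is highest for every copy shown but Gm25813.

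Copies with the same letters show how firmly a single copy can be read. In each of the 4 tumors, the 4 copies identical to Rnu2-10 had values within 1% of each other. In macrophages they were within 1% in 2 of 6 libraries, and in control 706 the highest was 1.78 times the lowest, with 2422 CPM for Gm24950 and 1359 CPM for Rnu2-10. How the counting divided reads among such copies is not given in the sources used here, so differences of single copies are uncertain, and the family sums are firmer. Among values under 200 reads, 54.2% to 72.0% of member values per macrophage library were whole multiples of a read. The share was 85.8% to 88.1% for genes of other biotypes. In tumors the shares were 60.0% to 81.8% and 87.6% to 88.9%, so fractional values were more frequent among members in both tables. Rnu2-10 itself was at 3321, 1854 and 2235 CPM in cKO libraries, against 1359, 1759.5 and 7183 CPM in control libraries, a difference of -0.11 log2 units (SE 0.46, limma adjusted p = 0.9998). As for the U2 sum, control 775 was the highest library. Gm25939 was at 10092, 5293 and 5191 CPM in cKO libraries, against 6656, 4761 and 14835 CPM in control libraries, a difference of -0.25 log2 units (SE 0.47, limma adjusted p = 0.9998). Gm23472 was at 7529, 5069 and 3955 CPM in cKO libraries, against 5382, 3371 and 10911 CPM in control libraries, a difference of -0.13 log2 units (SE 0.45, limma adjusted p = 0.9998), and Gm23444 was within 1% of it.

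U1, which pairs with the 5′ splice site, was read at a small part of the U2 level. Its sum was 133, 251 and 173 CPM in cKO libraries, against 262, 133 and 341 CPM in control libraries, and the macrophage groups overlapped. In tumors it was 124 and 121 CPM in cKO tumors, against 158 and 227 CPM in control tumors. Both cKO tumors were lower, an order that 14.3% of all genes had. The log2 ratio of means in tumors was -0.65, and -0.37 without control 720. In CPM, not scaled to length, U2 exceeded U1 by 96.8 to 298.7 times in macrophage libraries and by 1057 to 1484 times in tumors.

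The copies of U1 fell into 2 forms with different values in tumors, a difference that was not tested. The 2 copies nearest in sequence to Rnu1a1 (Gm22513 and Gm24305) summed to 40.7 and 43.3 CPM in cKO tumors, against 33.2 and 47.6 CPM in control tumors, and the groups overlapped. The 7 copies of the b form summed to 82.9 and 77.9 CPM in cKO tumors, against 125 and 179.5 CPM in control tumors. The groups did not overlap, beside 14.3% of all genes lower in both cKO tumors. The 2 most abundant b copies, Gm22614 and Gm25890, overlapped between groups, each at 31.3 and 24.5 CPM in cKO tumors, against 30.8 and 39.1 CPM in control tumors, a difference of -0.31 log2 units (SE 0.33, limma adjusted p = 0.902). The gap in the sum thus lay in less abundant copies. The a form gave 32.9% and 35.7% of U1 in cKO tumors, against 21.0% and 21.0% in control tumors. In the mouse the b form is known mainly from embryonic and other immature cells. In macrophages only 5 of the b copies were members. They summed to 30.6, 50.4 and 67.5 CPM in cKO libraries, against 74.7, 38.8 and 75.6 CPM in control libraries, with overlap.

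The widest difference among members in tumors was that of a b-form gene. Rnu1b1 was at 0.0509 and 3.27 CPM in cKO tumors, against 10.5 and 22.0 CPM in control tumors, a difference of -2.94 log2 units (SE 0.80, limma adjusted p = 0.717). The identical Rnu1b2 had the same values, so the pair is 1 observation, and the cKO 725 value was under 3 reads, so the size of the difference depends on the offset of 1 CPM. Rnu1b6 was at 6.71 and 6.97 CPM in cKO tumors, against 19.7 and 25.3 CPM in control tumors, a difference of -1.57 log2 units (SE 0.48, limma adjusted p = 0.722), and its identical copy Gm26232 had a difference of -1.51. Gm24830, also identical to Rnu1b6, went the other way, at 6.71 and 7.65 CPM in cKO tumors, against 2.78 and 6.62 CPM in control tumors, a difference of 0.61 log2 units (SE 0.69, limma adjusted p = 0.909). Copies with the same letters thus had opposite signs, and the single values are uncertain.

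U5 and U12 were weakly read. Summed over its copies U5 was at 36.3 and 42.2 CPM in cKO tumors, against 58.5 and 58.9 CPM in control tumors. Both cKO tumors were lower, as they were for 14.3% of all genes. In macrophages it was at 15.7, 26.7 and 22.8 CPM in cKO libraries, against 61.5, 24.7 and 32.0 CPM in control libraries, with overlap between cKO 746 and control 720. Rnu5g was at 9.0 and 9.60 CPM in cKO tumors, against 22.2 and 10.7 CPM in control tumors, a difference of -0.68 log2 units (SE 0.51, limma adjusted p = 0.877), and in macrophages its difference was -0.48 (SE 0.62). Gm23143 was lower in every cKO library in macrophages, at 3.79, 1.70 and 4.61 CPM in cKO libraries, against 12, 7.23 and 5.60 CPM in control libraries, a difference of -1.09 log2 units (SE 0.66, limma adjusted p = 0.9998). In tumors Gm23143 was at 11.6 and 11.6 CPM in cKO tumors, against 16.5 and 18.1 CPM in control tumors, again without overlap. Rnu12 of the minor spliceosome was at 10.9, 8.65 and 25.7 CPM in cKO libraries, against 17.5, 17.8 and 18.4 CPM in control libraries, and cKO 867 lay above all controls while the other cKO libraries lay below them. In tumors Rnu12 was at 4.68 and 5.17 CPM in cKO and 2.08 and 6.28 CPM in control libraries.

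**Figure D4:**
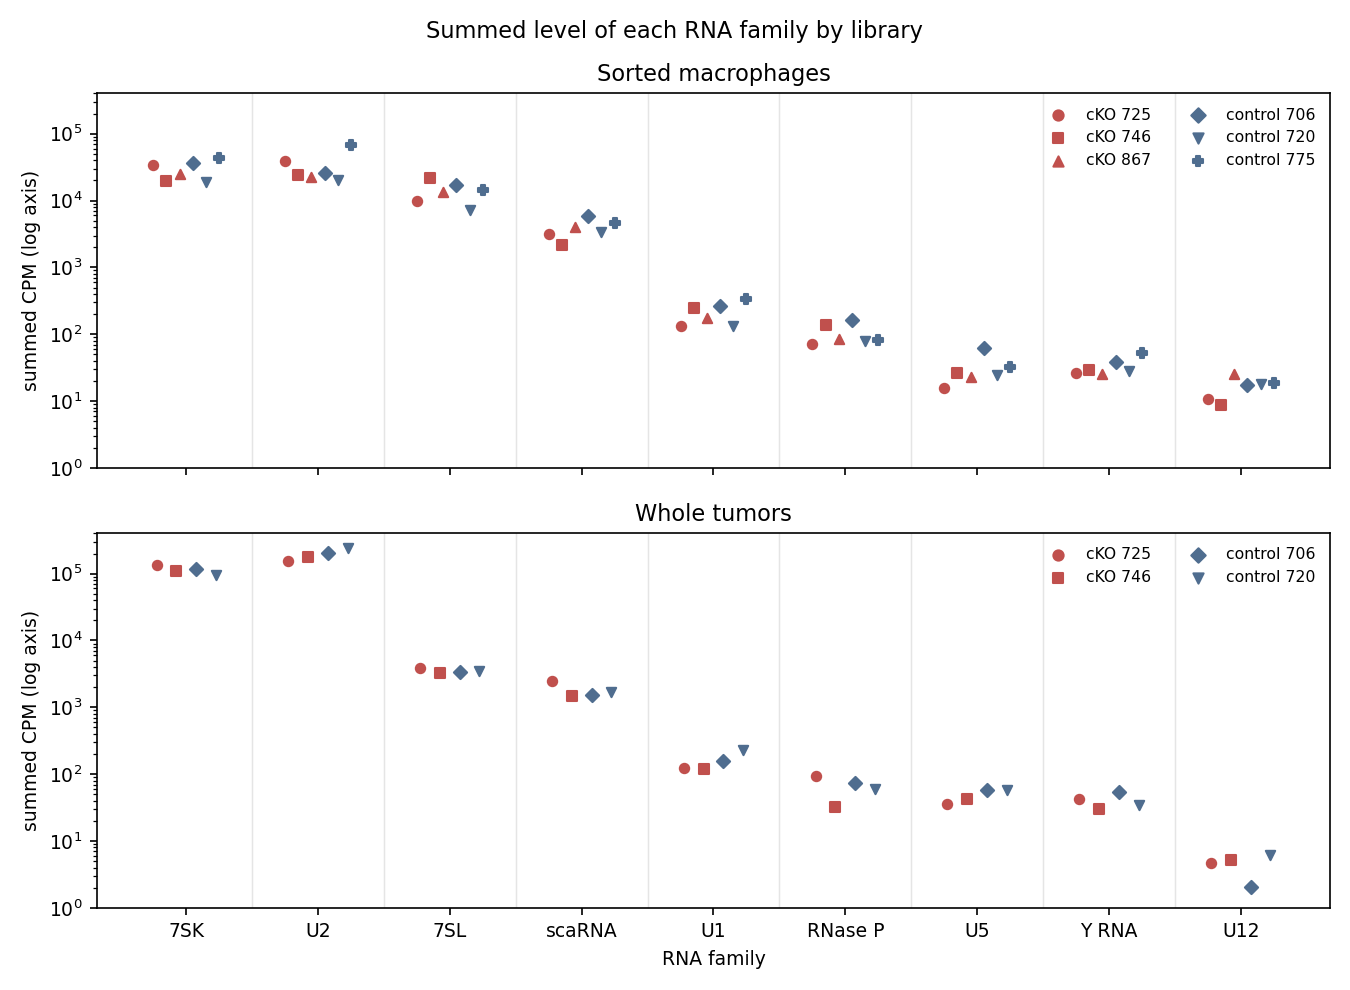
Points give the summed CPM of each RNA family on a log axis, per macrophage library (top) and tumor library (bottom), with cKO left of control. In tumors the cKO points of U2, U1 and U5 lie below the control points, and those of 7SK, 7SL, scaRNA, RNase P, Y RNA and U12 overlap them.

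7SK, the scaffold that holds P-TEFb inactive, was the highest member in both tables and did not separate the groups. Rn7sk was at 34356, 19464 and 24622 CPM in cKO libraries, against 36461, 18907 and 43441 CPM in control libraries, a difference of -0.29 log2 units (SE 0.64, 95% interval -1.61 to 1.03, limma adjusted p = 0.9998). It was at 133510.1 and 107709.5 CPM in cKO tumors, against 118669 and 94321 CPM in control tumors, a difference of 0.18 log2 units (SE 0.29, 95% interval -0.43 to 0.79, limma adjusted p = 0.947). With 1 library left out, the macrophage difference ran from -0.65 without control 720 to -0.046 without control 775, and the tumor difference from 0.015 without control 720 to 0.35 without control 706. In both tables the groups overlapped, with control 720 the lowest library in each. The macrophage interval reaches past 1 log2 unit on both sides of 0, and the tumor interval stays within 1 log2 unit. The ratio of 7SK to U2, in CPM, was 0.856 and 0.599 in cKO tumors, against 0.581 and 0.393 in control tumors. The ratio was higher in both cKO tumors, an order that 21.2% of single genes had. In macrophages it was 0.865, 0.802 and 1.08 in cKO libraries, against 1.39, 0.930 and 0.646 in control libraries, with overlap.

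7SL, the signal recognition particle RNA, also overlapped between groups. Its sum was 9695, 21616 and 13571 CPM in cKO libraries, against 16900.4, 7318 and 14247 CPM in control libraries. In tumors it was 3861 and 3288 CPM in cKO tumors, against 3356 and 3516 CPM in control tumors. Rn7s1 and Rn7s2 have the same 300 bases in GENCODE but not the same values. Rn7s1 was at 7888, 14010.3 and 12109 CPM in cKO libraries, against 13456, 5615 and 13107 CPM in control libraries, a difference of 0.14 log2 units (SE 0.50, limma adjusted p = 0.9998). Rn7s2 was at 1778, 7562 and 1419.6 CPM in cKO libraries, against 3352, 1667 and 1102 CPM in control libraries, a difference of 0.54 log2 units (SE 0.48, limma adjusted p = 0.9998). Rn7s1 exceeded Rn7s2 by 1.85 to 11.9 times in macrophages and 4.55 to 12.7 times in tumors, the least in cKO 746 macrophages. Both lie over exons of predicted miRNA genes on the same strand.

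Rn7s1 in tumors was at 3114 and 3009.7 CPM in cKO tumors, against 2894 and 2982 CPM in control tumors, a difference of 0.06 log2 units (SE 0.17, limma adjusted p = 0.967). Both cKO tumors lay above both controls by a few percent, and the sign turned under each rescaling tried. Rn7s2 was at 685 and 237 CPM in cKO tumors, against 402 and 472 CPM in control tumors, a difference of -0.11 log2 units (SE 0.32, limma adjusted p = 0.967). For Rn7s2 the cKO tumors lay on both sides of the controls. Rn7s6, another 7SL gene, was at 24.9, 41.3 and 39.1 CPM in cKO libraries, against 78.5, 34.6 and 35.5 CPM in control libraries, a difference of -0.41 log2 units (SE 0.36, limma adjusted p = 0.9998). In tumors it was at 62.1 and 41.1 CPM in cKO tumors, against 59.9 and 61.2 CPM in control tumors, a difference of -0.26 log2 units (SE 0.28, limma adjusted p = 0.904). Control 706 was high among macrophages and cKO 746 low among tumors.

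The scaRNAs, guides for modification of spliceosomal RNAs, were dominated by Gm22009, a gene of 343 bases in an intron of Kpna4, which is named here after its values were seen. It gave 94.2% to 97.9% of the scaRNA sum in macrophages and 94.3% to 97.4% in tumors. It was at 3102, 2057 and 3948 CPM in cKO libraries, against 5669, 3229 and 4463 CPM in control libraries, a difference of -0.57 log2 units (SE 0.37, limma adjusted p = 0.9998). In tumors it was at 2372 and 1407 CPM in cKO tumors, against 1485 and 1649 CPM in control tumors, a difference of 0.22 log2 units (SE 0.21, limma adjusted p = 0.888). The groups overlapped in both tables. Of the 13 scaRNAs in macrophages 10 had a negative difference and of the 11 in tumors 4.

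Other scaRNAs were weakly read. Scarna17 was at 12.5, 10.8 and 9.10 CPM in cKO libraries, against 16.4, 16.7 and 23.7 CPM in control libraries, a difference of -0.75 log2 units (SE 0.45, limma adjusted p = 0.9998). It was lower in every cKO macrophage library, and in tumors it averaged 0.383 CPM, under the threshold. Gm25443 was at 0.696, 0.200 and 0.238 CPM in cKO libraries, against 3.40, 1.28 and 1.96 CPM in control libraries, a difference of -1.19 log2 units (SE 0.81, limma adjusted p = 0.9998). This gene reached the 1 CPM minimum only through the control libraries, so that its lower cKO values follow in part from the rule and support nothing. Scarna13 was at 45.1, 41.7 and 47.3 CPM in cKO libraries, against 46.5, 33.3 and 36.0 CPM in control libraries, a difference of 0.22 log2 units (SE 0.31, limma adjusted p = 0.9998), and in tumors at 18.4 and 43.6 CPM in cKO tumors, against 29.7 and 21.5 CPM in control tumors, a difference of 0.16 log2 units (SE 0.40, limma adjusted p = 0.964). The groups overlapped in both tables. Scarna2 was higher in both cKO tumors, at 5.51 and 5.82 CPM in cKO tumors, against 1.11 and 2.98 CPM in control tumors, a difference of 1.2 log2 units (SE 0.79, limma adjusted p = 0.855). Scarna3b was also higher in both, at 4.33 and 2.63 CPM in cKO tumors, against 0.737 and 0.0121 CPM in control tumors, a difference of 1.73 log2 units (SE 0.93, limma adjusted p = 0.833), and its control 720 value was under 3 reads. In tumors it reached the minimum only through the cKO libraries, so its direction there follows in part from the rule. In macrophages Scarna2 overlapped between groups, at 17.4, 34.3 and 11.9 CPM in cKO libraries, against 42.9, 19.3 and 18.0 CPM in control libraries, a difference of -0.34.

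RNase P RNA and the Y RNAs showed no called difference. Rpph1 was at 70.7, 137 and 86.3 CPM in cKO libraries, against 162, 80.5 and 82.2 CPM in control libraries, a difference of -0.12 log2 units (SE 0.31, limma adjusted p = 0.9998). In tumors it was at 92.8 and 32.5 CPM in cKO tumors, against 72.5 and 59.6 CPM in control tumors, a difference of -0.25 log2 units (SE 0.36, limma adjusted p = 0.938). Its gene lies over an exon of Ccnb1ip1 on the same strand, so reads of the 2 genes may be mixed.

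Rny1, an RNA of the Ro particle, was lower in every cKO macrophage library, at 16.3, 17.9 and 22.1 CPM in cKO libraries, against 27.0, 23.5 and 33.1 CPM in control libraries, a difference of -0.55 log2 units (SE 0.38, limma adjusted p = 0.9998). In tumors its groups overlapped, at 24.2 and 16.3 CPM in cKO tumors, against 27.6 and 18.1 CPM in control tumors, a difference of -0.16. Rny3 was at 9.83, 11.2 and 3.54 CPM in cKO libraries, against 11.4, 5.16 and 18.4 CPM in control libraries, a difference of -0.44 log2 units (SE 0.60, limma adjusted p = 0.9998), with cKO 867 lowest and control 775 highest. In tumors it was at 18.3 and 14.3 CPM in cKO tumors, against 25.8 and 16.0 CPM in control tumors, a difference of -0.32. The vault RNA Vaultrc5 was at 1.35 and 0 CPM in cKO tumors, against 5.85 and 2.06 CPM in control tumors, and overlapped in macrophages. It reached the minimum in tumors only through the controls. The 8 members not assigned to a family averaged 1.07 to 3.87 CPM in macrophages, with differences of -1.14 to 0.26. Gm55801 among them was lower in every cKO macrophage library, at 2.36, 0.901 and 3.18 CPM in cKO libraries, against 5.49, 5.25 and 6.04 CPM in control libraries, a difference of -1.14 log2 units (SE 0.71, limma adjusted p = 0.9998).

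The levels in tumors and in sorted macrophages of the same 4 mice are given side by side without a test, since the tables were normalized separately and the samples were prepared differently. U2 in tumors was 3.93 and 7.41 times its macrophage level in cKO mice 725 and 746, and 7.81 and 11.8 times in control mice 706 and 720. 7SK was 3.89 and 5.53 times its macrophage level in cKO mice, and 3.25 and 4.99 times in control mice. 7SL ran the other way in all 4 mice, with tumor levels 0.398 and 0.152 times the macrophage level in cKO mice, and 0.199 and 0.480 times in control mice. SnoRNAs, other small nuclear RNAs with no poly(A) tail, were 1.15 to 1.79 times the macrophage level in tumors. Scaled to protein-coding reads, the tumor level was 5.47 to 19.0 times the macrophage level for U2, 4.66 to 8.04 times for 7SK and 0.212 to 0.774 times for 7SL. Of the 41 members of both tables, 16 were higher in tumors in all 4 mice, 7 lower and 18 mixed, and after scaling to protein-coding reads 21, 6 and 14.

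**Figure D5:**
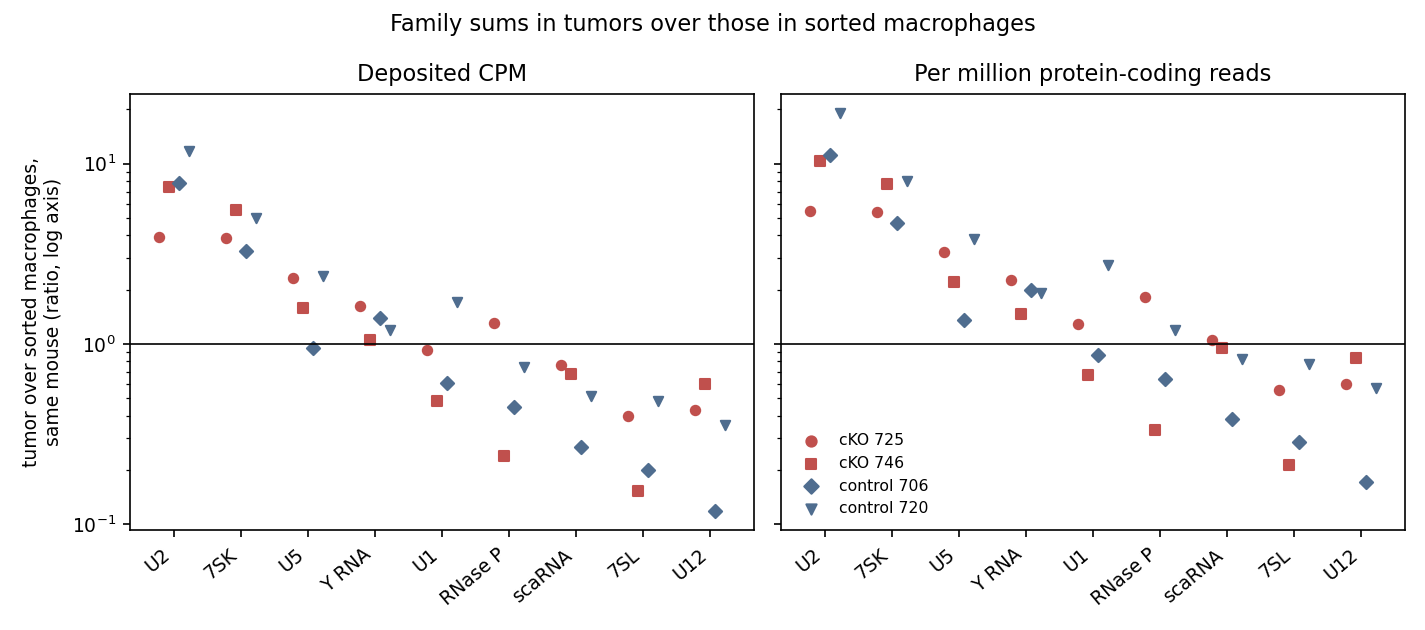
Points give, for each of the 4 mice, a family's summed level in the tumor over that in sorted macrophages, on a log axis, from deposited CPM (left) and scaled to protein-coding reads (right). U2 and 7SK lie above 1 and 7SL and U12 below 1 in all 4 mice on both scales, whereas U1 lies on both sides.

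Summed macrophage markers were at 74.6 and 76.6 CPM in cKO tumors, against 91.6 and 76.8 CPM in control tumors. Control 720 was nearly equal to cKO 746, and only control 706 stood clearly higher. Over the 6 macrophage libraries these markers were at 702 to 1597 CPM. Beside the U2 difference in tumors, summed fibroblast markers (6 genes) were at 331.5 to 445 CPM in cKO and 595 to 704 CPM in control tumors. Epithelial markers were at 5706 to 7372 CPM in cKO and 5277 to 6754 CPM in control tumors. SnoRNAs took 14.3% and 10.9% of cKO tumors, against 12.8% and 13.1% of control tumors, and the groups overlapped. The part of these shifts in the U2 difference was not tested.

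The protein partners of these RNAs were followed in 7 lists, and none of their genes was called by limma in either table, while 1 of 130 tested in macrophages and 8 of 124 in tumors had an unadjusted p under 0.05, beside 2.63% and 5.85% of all genes. The lists held 136 genes. Negative differences were found for 69 of 130 in macrophages, beside 45.3% of all genes, and for 45 of 124 in tumors, beside 43.4%. The proteins of the U1, U2, U4, U5 and U6 particles had a median of -0.09 in macrophages and 0.36 in tumors, where 22 of 27 were positive, while all genes had medians of 0.05 and 0.09. In tumors the U4/U6 protein Prpf31 was at 9.38 ± 5.32 CPM in cKO and 1.51 ± 2.09 CPM in control (SD, n = 2 each), a log2 difference of 2.26 (SE 0.87). The Prpf31 value of 0.0287 CPM in control 720 was under 3 reads, so the size of this difference depends on the offset of 1 CPM. Prpf4 of the same particle was at 20 ± 4.66 CPM in cKO and 9.11 ± 0.171 CPM in control (SD, n = 2 each), a log2 difference of 1.04 (SE 0.46). Both cKO tumors were above both controls for these 2 genes, with limma adjusted p of 0.819 and 0.833. The 2 were named for the lowest p of their list. In that list 9 of 27 genes were higher in both cKO tumors, beside 21.2% of all genes, and 1 was lower, beside 14.3%. In macrophages Phf5a, a U2 protein, was at 14.2 ± 5.19 CPM in cKO and 6.53 ± 3.79 CPM in control (SD, n = 3 each), a log2 difference of 1.11 (SE 0.59). Sf3a3, also of U2, differed by 1.24 (SE 0.66).

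Ring and assembly proteins showed no common direction. The Sm and LSm ring proteins had medians of 0.14 in macrophages (7 of 13 positive) and -0.13 in tumors (4 of 12 positive). Lsm2 differed by 1.2 (SE 0.77) and Lsm6 by 0.84 (SE 0.55) in macrophages, where Lsm2 was at 0 CPM in control 706. In tumors Lsm3 differed by -0.51 (SE 0.27) and Snrpd3 by -0.62 (SE 0.53). Assembly and Cajal body proteins had medians of -0.06 (8 of 21 positive) and 0.06 (14 of 21 positive). Ddx20, which acts in Sm ring assembly, was at 2.83 ± 2.63 CPM in cKO and 9.23 ± 4.34 CPM in control macrophage libraries (SD, n = 3 each), a log2 difference of -1.58 (SE 0.71). Wdr77, of the same pathway, differed by -0.69 (SE 0.34), and both were lower in every cKO than in every control library. Over all 7 lists 8 of 130 genes had that order in macrophages, beside 3.45% of all genes. The opposite order was found for 4, beside 3.78%. Phax, the adaptor that exports spliceosomal RNAs from the nucleus, differed by 0.83 (SE 0.51) in tumors, and the assembly protein Clns1a by -0.23 (SE 0.27). Minor spliceosome proteins had medians of 0.16 (6 of 8 positive) and 0.24 (4 of 7 positive), and Pdcd7 differed by -0.89 (SE 0.54) in macrophages and 0.86 (SE 0.69) in tumors. Rnpc3 differed by 0.27 (SE 0.33) in macrophages, and Snrnp48 by 0.64 (SE 0.37) in tumors.

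Partners of 7SK and of snRNA transcription were likewise not called. The 7SK and P-TEFb list had medians of -0.08 (3 of 10 positive) and 0.13 (6 of 10 positive). Larp7, which binds the 3′ end of 7SK, differed by -1.07 (SE 0.66) in macrophages, and Mepce, which caps it, by -0.62 (SE 0.41), both with overlap. In tumors the elongation factor Ell2 differed by -0.38 (SE 0.26). The list of snRNA transcription and end processing had medians of -0.09 (13 of 28 positive) and 0.20 (17 of 27 positive). Snapc1, a subunit of the factor that binds snRNA promoters, was at 30.7 ± 2.75 CPM in cKO and 15.4 ± 5.94 CPM in control tumors (SD, n = 2 each), a log2 difference of 0.99 (SE 0.39). Tbp, the TATA-binding protein, was at 12.3 ± 3.88 CPM in cKO and 25.0 ± 0.917 CPM in control tumors (SD, n = 2 each), a log2 difference of -1.0 (SE 0.42). Of Integrator, which cuts snRNA precursors, Ints2 differed by -0.65 (SE 0.32) and Ints12 by 0.56 (SE 0.34) in macrophages. Proteins of the signal recognition particle, Y RNA, vault, RNase P and MRP had medians of 0.07 (13 of 23 positive) and 0.08 (12 of 20 positive), and in macrophages Srp14 differed by 0.56 (SE 0.42) and Rpp30 by 0.66 (SE 0.54). In tumors the vault protein Parp4 differed by 0.88 (SE 0.30) and the RNase P protein Rpp14 by -0.99 (SE 0.48).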

How the data were processed

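Total RNA of sorted macrophages and of whole tumors was sequenced after ribosomal RNA depletion with QIAseq FastSelect and without poly(A) selection, from PrepX libraries made on an Apollo 324, per the labels' protocols. Partek, STAR 2.7.8a and the builds GRCm38 and mm10 are named in the submitters' processing notes, and the counting of reads that match several copies is not given in the sources used here. The deposited values are log2(CPM + 1): after 2 to the power of the value minus 1, each library sums to 1e+06. The coordinates in the deposited tables differ from those of GRCm38, so coordinates and sequences were taken from GENCODE vM21 by gene identifier (20 members) or symbol (33).

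Each table was analysed alone with limma 3.58.1 in R 4.3.3 (linear model, empirical Bayes with an intensity trend), cKO minus control, over genes averaging at least 1 CPM, with Benjamini-Hochberg adjustment over all of them and a threshold of 0.05. Differences are on the log2(CPM + 1) scale, which understates those of low genes. Sums and sequences were handled in Python 3.11.15 with numpy 2.4.6, pandas 2.3.3 and Biopython 1.88. The tables hold no counts. Low values were whole multiples of a read, within 0.1 read, for 84.6% to 89.2% of values, short of the 95% set for a count test. The same steps give 14.4 to 53.4 M reads per library and a floor of 3 reads at 0.0562 to 0.208 CPM, which covers counting error only. The planned exact permutation test of family sums is not printed, since its smallest p is 0.1 for 3 against 3 libraries and 0.333 for 2 against 2. The labels give each library its mouse, so the spread is between mice.

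On simulated data for the macrophage comparison (16304 genes, 200 changed) 7.5% of 2-fold, 77% of 4-fold and 91% of 8-fold changes were recovered, and for the tumor comparison (14630 genes) 26.5%, 71.5% and 83%. False calls numbered 2, 8 and 11 in macrophages and 6, 8 and 8 in tumors. The noise was normal with the fitted spread, and changed genes were drawn only from those at about 5 CPM or more. A filter at a mean of 5 CPM kept 35 of 55 members in macrophages and 33 of 46 in tumors. The recovery rates thus do not cover the weaker members. Genes are named by a rule: Rn7sk, members with a conventional symbol and a mean of at least 5 CPM, and the 5 members with the highest mean. The rule also takes up to 5 non-overlapping members per direction and 2 genes per partner list and table, both by the lowest unadjusted p. One gene that the rule names is not reported here. Other copies were named after their values were seen. The members and lists were chosen with earlier results of these data known. Alternatives were other offsets, filters and scalings, no trend, and leaving out each library. The sums of U2, U1, 7SK and 7SL under them were added after seeing the data.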

Additional observations from a re-analysis of the deposited data

How the results depend on the processing

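No member passed the test under any offset, filter, scaling, trend or left-out library tried. The lower U2 sum in cKO tumors kept its sign under every scaling and left-out library, with log2 ratios of -0.52 to -0.28 when a library was left out. The log2 ratio of the member total in tumors was -0.18, and it was -0.30 with protein-coding scaling, -0.25 with TMM and -0.26 with median-ratio scaling. Rn7s1 in tumors turned from 0.06 to -0.058, -0.0046 and -0.022 under the same 3 scalings. The cause was not tested. Leaving out 1 library gave 0 to 3 called genes in macrophages, 3 of them without control 775 and none a member, and a U1 log2 ratio in tumors of -0.89 to -0.37. Leaving out a tumor library leaves its group with 1 sample, which is assumed to vary like the others. In macrophages the sign of the difference turned within these ranges: Rnu2-10 -0.57 to 0.63, Gm25939 -0.61 to 0.21, Gm23472 -0.53 to 0.32, Gm23444 -0.52 to 0.33, Rn7s1 -0.27 to 0.39, Rn7s2 -0.21 to 0.9998, Rpph1 -0.39 to 0.21, Scarna2 -0.74 to 0.047 and Rny3 -0.88 to 0.012. In tumors it turned for Rn7s2 -0.87 to 0.65, Rn7s6 -0.55 to 0.037, Rpph1 -0.99 to 0.49, Scarna13 -0.44 to 0.76, Rny1 -0.45 to 0.13, Rny3 -0.64 to 0.010 and Clns1a -0.50 to 0.042. In macrophages 29 members and in tumors 16 averaged under 10 CPM. Whether depth or the spread between mice limits their comparisons was not tested. No paired analysis was possible because within each table no mouse number occurs in both the cKO and the control group. The tumor and macrophage libraries of 4 mice are compared as ratios within each mouse, and were not tested since the tables were normalized separately.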
